A study of Mus musculus with 6 samples.

Results

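The Toll-like receptors Tlr1 to Tlr9 and their co-receptor Cd14 were followed in the hearts of 6 mice after aortic banding, a surgical narrowing of the aorta that makes the left ventricle pump against a raised pressure. The members were taken by gene symbol, as every probe set on an Affymetrix expression array that is annotated to 1 of these 10 symbols and to no other gene. They comprised 16 of 38195 probe sets, and 10 of 18029 genes with a symbol. The wild type group was 3 mice labelled Flox and wild type, a name used for animals that carry loxP sites, and the knockout group was 3 mice labelled Tmbim1 KO. All 6 were on a C57BL/6 background, 8 weeks old, and had been banded for 2 weeks (the labels write "binding"). Each array held RNA from 1 heart, labelled from 400 ng of total RNA. The Cre driver or other means of deletion, the cells it reaches and the mice's sex are not given in the labels, and unbanded hearts were not analysed here. Differences are therefore between genotypes in loaded hearts, not responses to load.

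Toll-like receptors recognise parts of microbes and molecules released by injured tissue. TLR1, TLR2, TLR4, TLR5 and TLR6 act at the cell surface, where CD14 hands ligand to TLR4 with the help of its partner MD-2, and TLR2 pairs with TLR1 or TLR6. TLR3, TLR7, TLR8 and TLR9 sense nucleic acids inside endosomes. Signals pass through the adaptors MyD88 and TRIF to NF-kB and interferon regulatory factors, which induce cytokine genes. In the heart these receptors are found on cardiomyocytes, endothelial cells and resident and recruited leukocytes, with CD14 mainly on macrophages and monocytes. TMBIM1, a membrane protein of endosomes and lysosomes, has been linked in published work to the lysosomal breakdown of TLR4 protein. The arrays measure transcripts and give no information on receptor protein.

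The promoters of Tlr2 and Tlr3 are shown because they were the members' promoters that held a match to the kappa B motif, the sequence bound by NF-kB, to which the receptors signal. RefSeq promoters of build GRCm38.p6, from 250 bases before to 50 bases after a transcription start, were searched for 7 of the 10 members (9 promoters). Those of Tlr4, Tlr7 and Cd14 were not searched. The capitals mark matches to the kappa B consensus on either strand, and where 2 matches overlap they are joined into 1 run.

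Tlr2, chr3:83841559-83841858, minus strand: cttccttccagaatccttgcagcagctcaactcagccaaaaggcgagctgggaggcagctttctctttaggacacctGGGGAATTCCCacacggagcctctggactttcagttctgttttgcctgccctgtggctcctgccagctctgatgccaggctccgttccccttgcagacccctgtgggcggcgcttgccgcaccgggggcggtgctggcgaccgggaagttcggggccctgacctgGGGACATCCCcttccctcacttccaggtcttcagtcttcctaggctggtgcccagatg

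Tlr3, chr8:45410331-45410630, minus strand: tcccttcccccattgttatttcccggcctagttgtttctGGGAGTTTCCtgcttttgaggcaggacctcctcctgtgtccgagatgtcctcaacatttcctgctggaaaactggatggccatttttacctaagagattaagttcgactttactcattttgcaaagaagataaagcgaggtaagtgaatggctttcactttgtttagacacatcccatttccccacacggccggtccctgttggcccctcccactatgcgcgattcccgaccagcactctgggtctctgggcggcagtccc

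The Tlr2 window held 3 matches, of which 2 overlap by all but 1 base, and the Tlr3 window held 1. A kappa B match occurred in 2 of the 9 member promoters and in 8.46% of 32851 promoters of the same length. The AP-1 motif TGANTCA (either strand) lay in 1 member promoter, that of Tlr9, and in 7.81% of all promoters. The sequence GAGGAA (either strand), a core bound by ETS factors, lay in 1 promoter each of Tlr1, Tlr8 and Tlr9, and in 28.3% of all promoters. An interferon-response motif GAAANNGAA (either strand) lay in 1 promoter each of Tlr6 and Tlr8, and in 8.56% of all promoters. Matches of different motifs did not overlap in any of the 9 promoters. These matches describe letters in a window and are no evidence of binding. They are given beside the transcript values of the same genes below.

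The deletion was visible in its target, Tmbim1, whose log2 signal averaged 8.43 ± 0.13 in wild type and 7.53 ± 0.04 in knockout hearts (SD, n = 3 each), a fall of 0.91 (limma adjusted p = 0.00579). Without knockout replicate 2 its adjusted p was 0.0512, and without both knockout replicate 1 and wild type replicate 3 it was 0.0607. The fall of 0.91 is 1.87-fold, so Tmbim1 signal remained in the knockout hearts, and it was not below the 87.7 percentile on any array. Whether its probes fall inside the deleted stretch is unknown. The tissue label was borne out by cardiomyocyte genes, whose 7 markers had a mean log2 signal of 12.77 to 12.99 on every array. Knockout replicate 1 stood apart, with a mean over 4 atrial genes of 12.95 against 5.72 to 6.26 on the other 5 arrays. Wild type replicate 3 was singled out from earlier results of these arrays, which are not shown here, and its array median (4.27) lay among those of the other arrays. Results are therefore also given without these arrays where that moves them.

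In the comparison of knockout with wild type hearts, none of the receptors nor Cd14 passed the threshold. The test was limma across all probe sets, with Benjamini-Hochberg adjustment and an adjusted p under 0.05 as the threshold. Of the 16 member probe sets 0 passed, and the lowest adjusted p was 0.361, for Cd14. Over all probe sets 161 passed, 0.422% of those tested, so a count of 0 among 16 lies near that background. At an unadjusted limma p under 0.05 there was 1 member probe set, Cd14, where 10.6% of all probe sets were at that level. Over the main probe sets, the brightest of each gene, the shares were 0.549% past the adjusted and 11.5% past the unadjusted threshold, against 0 and 1 of the 10 members. The median difference of the 10 members was 0.013 on the log2 scale, and that over the main probe sets of all genes was -0.0020. The 9 receptors lay between -0.10 (Tlr1) and 0.20 (Tlr8) at their main probe sets, and Cd14 was at 0.38.

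**Figure D1:**
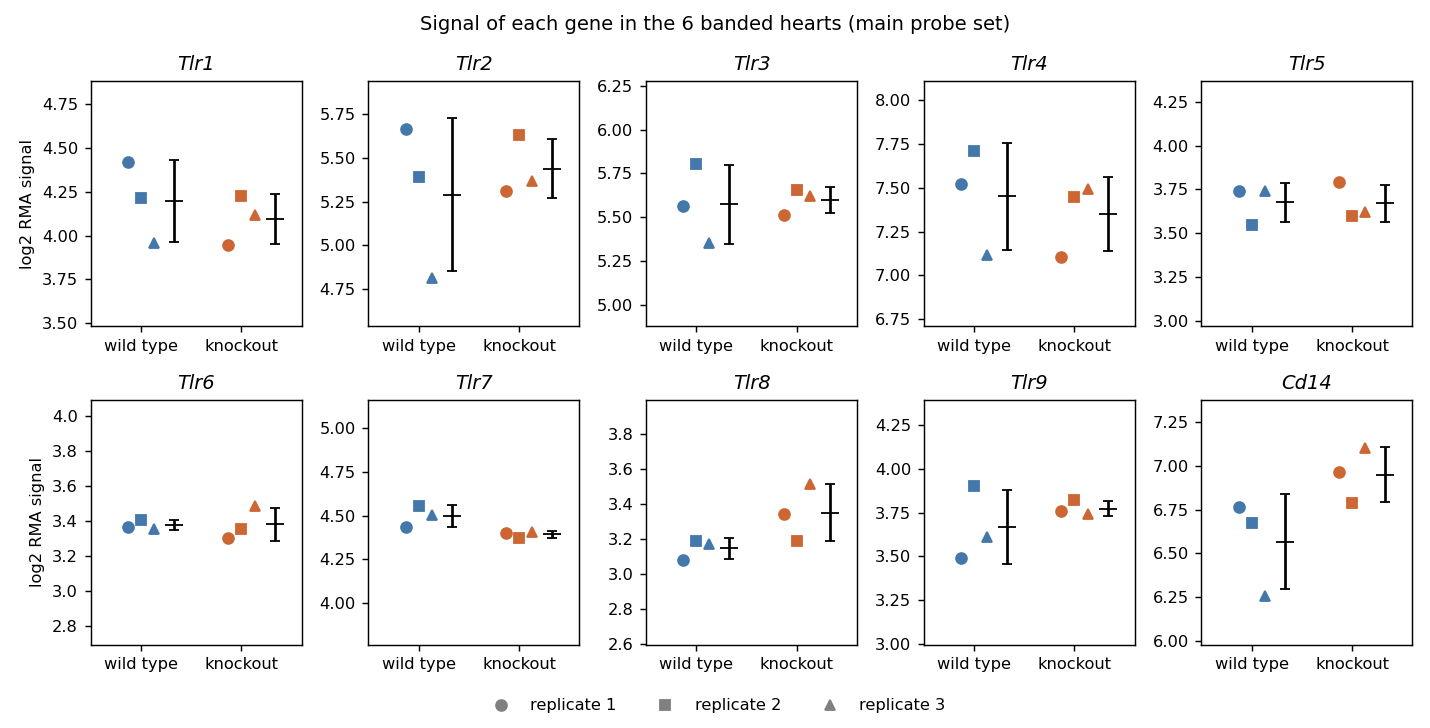
Log2 RMA signal (vertical axis; each panel spans the same range of 1.4 units) of the main probe set of each member in the 3 wild type (blue) and 3 knockout (orange) hearts, with replicates by marker shape and the mean ± SD of each group in black. The groups overlap in 8 of the 10 panels, the exceptions being Cd14, higher in knockout, and Tlr7, lower in knockout.

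Cd14, the lipopolysaccharide co-receptor that is anchored to the membrane by a lipid tail, was the member with the largest difference. Its log2 signal was 6.77, 6.67 and 6.26 in wild type replicates 1 to 3 and 6.96, 6.79 and 7.10 in knockout replicates 1 to 3. Every knockout heart lay above every wild type heart, though the highest wild type and the lowest knockout value were close, and wild type replicate 3 was the lowest of all. Groups that do not overlap were seen in 15.2% of all probe sets and in 2 of the 16 member probe sets. The means were 6.57 ± 0.27 and 6.95 ± 0.16 (SD, n = 3 each), a difference of 0.38 (SE 0.14, 95% interval 0.06 to 0.71, limma adjusted p = 0.361), or 1.30-fold. Without wild type replicate 3 the difference was 0.23 (adjusted p = 0.647), and without that array and knockout replicate 1 it was 0.22 (adjusted p = 0.857).

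Of 11 macrophage markers 0 passed by limma and 5 had an unadjusted p under 0.05, with 9 positive differences and a median of 0.34. Of the main probe sets of all genes, 11.5% were at that unadjusted level. For 4 of the 11 every knockout value lay above every wild type value, where 15.2% of all probe sets did not overlap in either direction. The mean log2 signal of the 11 markers was 6.98, 7.24 and 6.88 in the wild type and 7.36, 7.17 and 7.45 in the knockout arrays. The groups thus overlapped in this mean, with knockout replicate 2 below wild type replicate 2. All 11 markers were brighter than the middle olfactory receptor probe set described below. Among them were Fcgr1, a high-affinity Fc receptor (0.40), Lyve1, with the largest difference of the list (0.79), and Csf1r, the receptor of a macrophage growth factor (0.09). The 2 negative ones, Cd163 and Mertk, were both at -0.02. Of 6 fibroblast markers 0 passed by limma and 3 had an unadjusted p under 0.05, with 5 positive differences and a median of 0.33. Their mean log2 signal was 8.61 to 9.17 in wild type and 9.17 to 9.30 in knockout hearts. The values of the collagen gene Col1a1 (0.40) and of Dpt, dermatopontin (0.39), did not overlap between the groups. The background shares for these counts are the 11.5% and 15.2% given above. The 3 monocyte markers measured had a median of -0.01. Whether any of these cells have a part in the Cd14 difference was not tested. In whole hearts, more or fewer cells of a type and more or less RNA per cell cannot be told apart.

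Tlr4, the lipopolysaccharide receptor, had 4 probe sets, and all 4 differences were negative and small. At the main one the log2 signal was 7.52, 7.71 and 7.12 in wild type and 7.11, 7.45 and 7.50 in knockout hearts. The groups overlapped throughout, with 1 low heart in each, wild type replicate 3 and knockout replicate 1. The difference was -0.10 (SE 0.16, 95% interval -0.46 to 0.26, limma adjusted p = 0.899). The second brightest probe set read 6.20, 6.23 and 6.37 in wild type and 6.02, 6.22 and 6.08 in knockout hearts. Here wild type replicate 3 was the highest array and not the lowest, so these probe sets of Tlr4 ordered the hearts differently. Its difference was -0.16 (SE 0.10, 95% interval -0.39 to 0.07, adjusted p = 0.659). The remaining 2 were at -0.09 and -0.07, with mean signals of 4.45 and 3.11 that lie inside the range of the dim reference described below. The probe sets share the same 6 RNA samples and are not replicates of one another.

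Tlr2, the receptor for bacterial lipoproteins, varied most among the members. Its log2 signal was 5.67, 5.39 and 4.81 in wild type and 5.31, 5.63 and 5.37 in knockout hearts. Wild type replicate 3 lay below the other 5 arrays, among which the groups were interleaved. The means were 5.29 ± 0.44 and 5.44 ± 0.17 (SD, n = 3 each), a difference of 0.15 (SE 0.19, 95% interval -0.28 to 0.58, limma adjusted p = 0.870). Without wild type replicate 3 it turned to -0.09.

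Tlr1 and Tlr6, the partners of TLR2, were dim. Tlr1 read 4.42, 4.22 and 3.96 in wild type and 3.94, 4.22 and 4.12 in knockout hearts, a difference of -0.10 (SE 0.13, adjusted p = 0.865) with overlapping groups. Tlr6 ranged only from 3.30 to 3.49 over the 6 arrays, with a difference of 0.0046 (95% interval -0.21 to 0.22). Tlr5, the receptor for bacterial flagellin, ranged from 3.55 to 3.79, with a difference of -0.0045 (95% interval -0.24 to 0.23).

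Tlr3, an endosomal receptor that binds double-stranded RNA, had 2 probe sets, of which the main one read 5.56, 5.80 and 5.35 in wild type and 5.51, 5.65 and 5.62 in knockout hearts. The knockout values lay inside the wild type range, and the difference was 0.02 (SE 0.12, 95% interval -0.25 to 0.30, limma adjusted p = 0.977). Its second, dimmer probe set was at -0.03.

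Tlr7, a receptor for single-stranded RNA, read 4.43, 4.56 and 4.50 in wild type and 4.40, 4.37 and 4.40 in knockout hearts. All 3 knockout values lay below all 3 wild type values, but the distance was small: the difference was -0.10 (SE 0.09, 95% interval -0.31 to 0.10, limma adjusted p = 0.780). Its other probe sets were at -0.04 and -0.10, both with overlapping groups. One of them carries the suffix x_at, which marks probes that may also match other transcripts.

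Tlr8, the neighbour and relative of Tlr7 on the X chromosome, read 3.08, 3.19 and 3.17 in wild type and 3.35, 3.19 and 3.52 in knockout hearts. Knockout replicates 1 and 3 were above all wild type hearts, and knockout replicate 2 was level with the highest of them. The difference was 0.20 (SE 0.11, 95% interval -0.04 to 0.45, limma adjusted p = 0.568), in a range of signal where olfactory receptor probe sets also lie. Without knockout replicate 3 it was 0.12. Tlr9, which senses unmethylated CpG DNA, read 3.49, 3.90 and 3.61 in wild type and 3.76, 3.82 and 3.74 in knockout hearts. The groups overlapped, with a difference of 0.11 (SE 0.12, adjusted p = 0.841). Leaving out wild type replicate 1 brought it to 0.018, and leaving out replicate 2 of that group to 0.22. As Tlr7 and Tlr8 are X-linked, sex-linked genes were read on each array. Xist, expressed from the inactive X of females, lay between 1.86 and 2.27, and the Y-linked Eif2s3y between 7.95 and 8.29, with the groups overlapping for both. On every array Xist was under the median of the olfactory receptor probe sets (2.70) and Eif2s3y over their highest value (4.48). All 6 hearts thus had the expression pattern of males. The Y-linked Kdm5d was higher in every knockout heart (5.44 to 5.57 against 5.05 to 5.38) and Uty lower in every one (5.55 to 5.58 against 5.59 to 5.63), and neither passed (limma adjusted p = 0.528 and 0.916).

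**Figure D2:**
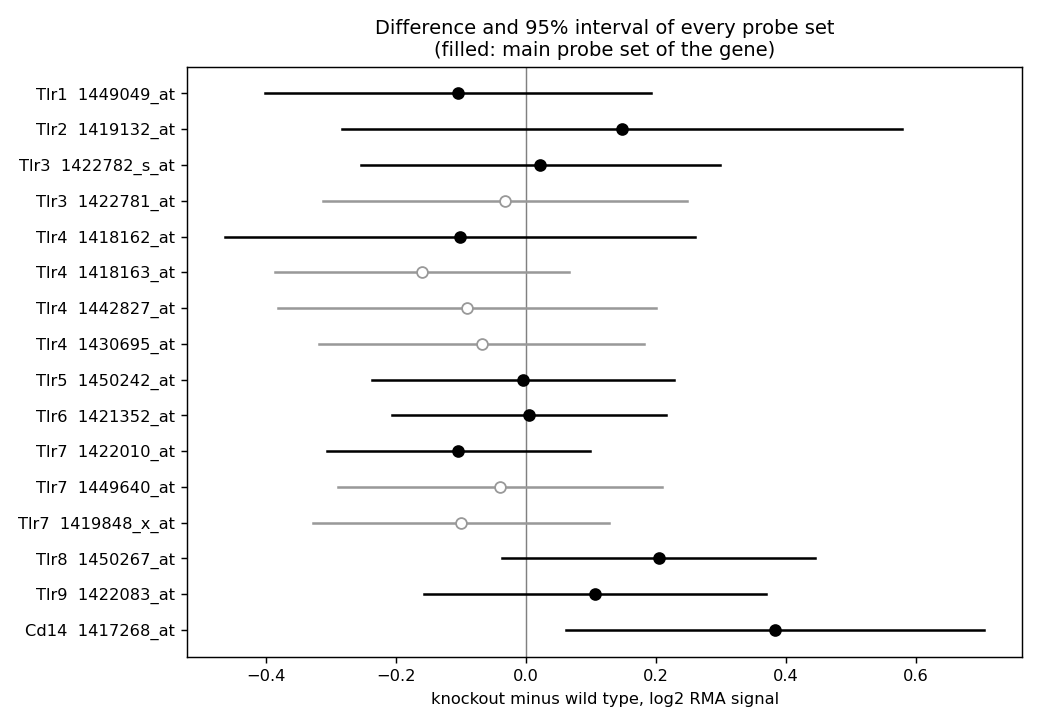
Difference between knockout and wild type means (horizontal axis, log2 RMA signal) with its 95% limma interval for each of the 16 member probe sets, filled for the main probe set of each gene. The interval includes 0 for every probe set but that of Cd14 (0.06 to 0.71), and these intervals are not adjusted for the number of probe sets.

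A p above the threshold does not show equal expression, so the intervals bound what these 6 arrays leave possible. Over the main probe sets of the 9 receptors, the bound farthest from 0 was the upper one of Tlr2, at 0.58 or 1.49-fold. For Tlr4 the interval ran from 0.73-fold to 1.20-fold, and for Tlr3 from 0.84-fold to 1.23-fold. RMA can compress differences of dim probe sets, so the narrow intervals of Tlr5, Tlr6, Tlr7 and Tlr8 hold for the array signal and not necessarily for the transcript.

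The signal level of each receptor was set against a dim reference, the 44 probe sets of 39 olfactory receptor genes, which are mostly silent in heart. These had a median mean signal of 2.70, a 95th percentile of 4.22 and a highest value of 4.48. Probes differ in how strongly they bind, so the levels do not rank the receptors. Cd14, Tlr4, Tlr3 and Tlr2 lay above the whole reference at their main probe sets, with 6-array means of 6.76, 7.40, 5.58 and 5.36. Tlr4 stood between the 84.7 and 88.8 percentile of its array and Cd14 between the 76.1 and 84.1 percentile. Tlr7 (4.44) exceeded the 95th percentile of the reference, and Tlr1 (4.15), Tlr9 (3.72), Tlr5 (3.67), Tlr6 (3.38) and Tlr8 (3.25) lay between its median and that percentile. For these 5 the signal was within the range given by genes not expected in heart, and Tlr7 too lay below the highest of them (4.48). Probe sets of 1 gene also spread widely. Tlr4 went from 3.11 to 7.40 and Tlr7 from 2.54 to 4.44, with 2 of the Tlr7 probe sets below the reference median. Of all 16, 7 lay above the 95th percentile of the reference and 2 below its median.

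**Figure D3:**
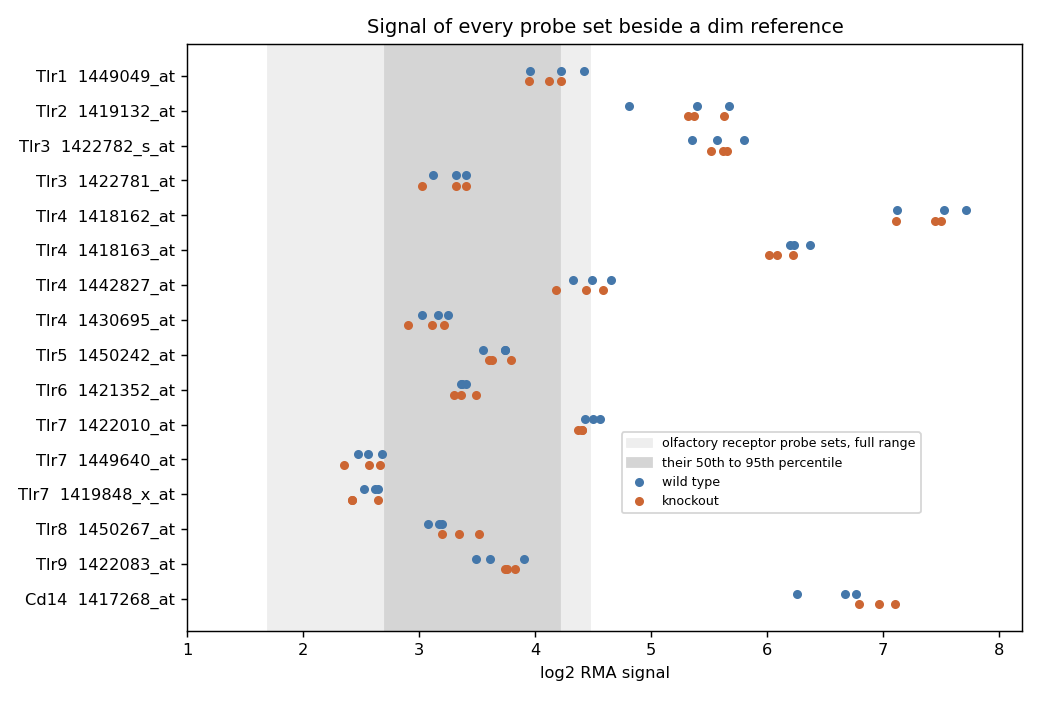
Log2 RMA signal (horizontal axis) of the 16 member probe sets in each wild type (blue) and knockout (orange) heart, with the range of 44 olfactory receptor probe sets in light grey and their 50th to 95th percentile in dark grey. The main probe sets of Cd14, Tlr4, Tlr3 and Tlr2 lie to the right of the reference in every heart, and the symbols of the groups lie close together.

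Part of the spread within groups fell on 1 heart. Wild type replicate 3 was the lowest wild type array for 6 of the 10 members (Tlr1, Tlr2, Tlr3, Tlr4, Tlr6 and Cd14), and for 33.7% of the main probe sets of all genes. It was the lowest of all 6 arrays for 3 members, against 21.2% of all genes. Macrophage markers and fibroblast markers were also lowest on that array, with means of 6.88 and 8.61.

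The genes whose pattern over the 6 arrays was most like that of the members with the largest spread, Tlr2 (SD 0.31) and Cd14 (SD 0.29), were found by the root mean square difference of centred log2 values. For Cd14 these were Fcgr1 (0.04), Tnfaip6, a hyaluronan-binding protein induced by TNF (0.05), and Carhsp1 (0.05). Each was positive, at 0.40, 0.45 and 0.40, and none of these 3 passed (limma adjusted p = 0.286, 0.210 and 0.303). Tnfaip6 is dim, with a mean of 2.96. For Tlr2 they were Arrdc4 (0.07), Trp53i11 (0.08) and Sh3d19 (0.08). With 6 arrays and 18029 genes, close matches are always to be found.

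**Figure D4:**
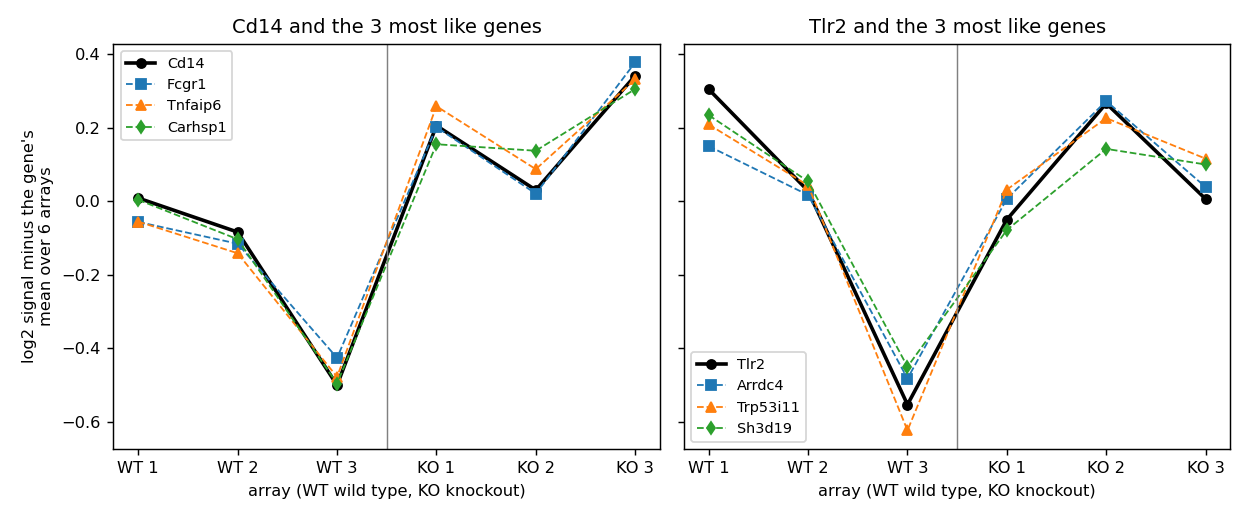
Log2 signal minus the gene's own mean over the 6 arrays (vertical axis) for Cd14 and Tlr2 (black) and the 3 genes nearest to each, with lines joining the values of 1 gene across arrays that have no order. Cd14 and Fcgr1 differ by a root mean square of 0.04, and Tlr2 and its 3 neighbours share their lowest value, in wild type replicate 3.

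The other genes of the pathway showed where calls were made and where not. Of the main probe sets of all genes, 0.549% passed by limma and 11.5% had an unadjusted p under 0.05. Of the other mouse Toll-like receptors, Tlr12 (0.06) and Tlr13, which senses bacterial ribosomal RNA (0.17, and 0.091 without knockout replicate 3), did not pass. Among 11 co-receptors, chaperones and trafficking proteins, 0 passed by limma and 1 had an unadjusted p under 0.05. That was Hsp90b1, the chaperone gp96 that folds the receptors (-0.22, adjusted p = 0.434). Lbp, which delivers lipopolysaccharide to CD14, was at 0.46 (adjusted p = 0.499), and 0.16 without wild type replicate 3. Cd36, a scavenger receptor and TLR2 co-receptor, was at -0.21 (adjusted p = 0.506). The median of the list was 0.02.

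Of 17 adaptors and kinases measured, 1 rose and 0 fell, where 0.549% of the main probe sets of all genes passed in either direction. Wdfy1, an adaptor that joins TLR3 and TLR4 to TRIF, had a log2 signal of 4.71, 4.53 and 4.52 in wild type and 7.08, 7.34 and 7.27 in knockout hearts. The groups were far apart, and the difference was 2.65 (SE 0.11, limma adjusted p = 1.30e-05), or 6.26-fold. The list's median was 0.07. The receptors Tlr3 and Tlr4 that Wdfy1 serves were at 0.02 and -0.10 in the same hearts. Of 11 feedback inhibitors, 1 rose, Atf3, a repressor of inflammatory genes (1.66, SE 0.17, adjusted p = 0.00485), and the median was 0.14. An unadjusted limma p under 0.05 was seen for 4 of the 11, against 11.5% of the main probe sets of all genes. For 3 of the 11 every knockout value lay above every wild type value, where 15.2% of all probe sets did not overlap in either direction.

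Of 15 cytokines and enzymes that Toll-like receptors induce, 9 rose and 0 fell, with a median of 1.09. Of the main probe sets of all genes, 0.549% passed in either direction. The 9 genes were Il6, Tnf, Il1b, Ccl2, Ccl3, Ccl4, Ptgs2, Ifnb1 and Il12b. Several of them were known from earlier results of these arrays when the list was written, so the count is not independent evidence of a direction. Ifnb1, interferon beta, read 3.29, 3.48 and 3.75 in wild type and 5.08, 5.12 and 5.02 in knockout hearts. Every knockout value was above every wild type value, and the difference was 1.56 (SE 0.12, limma adjusted p = 0.00101). The wild type values of Ifnb1 lay within the dim reference and the knockout values above it. The wild type means of Il6 (2.35), Ptgs2 (3.42), Ccl3 (3.57) and Tnf (4.10) were also within that reference, and their knockout means above it. Ccl2, Ccl4 and Il1b had means above it in both groups. Il12b, a subunit of interleukins 12 and 23, rose by 1.30 (SE 0.15, adjusted p = 0.00671), to a mean of 3.92 that lies inside that reference. The count of 9 was 7 without knockout replicate 2 and 7 without both knockout replicate 1 and wild type replicate 3. In both cases Ccl2 (adjusted p = 0.166 and 0.0877) and Il12b (0.0591 and 0.0523) lost their calls. Ccl2 kept its call with 1 array left out only where that array was knockout replicate 1. Of the 7 of these genes with a promoter in the RefSeq table, 2, Ifnb1 and Il6, held a kappa B match in the same window, as did Tlr2 and Tlr3, which did not pass.

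Of 10 proposed endogenous ligands of TLR2 and TLR4 that were measured, 2 rose, the heat shock genes Hspa1b (2.33, adjusted p = 0.00579) and Hspa1a (2.20, adjusted p = 0.0429), near copies of each other that probes may not separate. The median of this list was 0.66. An unadjusted limma p under 0.05 was seen for 7 of the 10, against 11.5% of the main probe sets of all genes. Every knockout value lay above every wild type value for 7 and below for 1, where 15.2% of all probe sets did not overlap. Past the adjusted threshold were 0.549% of the main probe sets of all genes. Hspa1a lost its call in 8 of 15 alternatives, and kept it with 1 array left out only without knockout replicate 2 or 3. Without both knockout replicate 1 and wild type replicate 3, Hspa1b (adjusted p = 0.0927) and Atf3 (0.0550) also lost theirs. In the same hearts all 7 heat shock genes, read as a sign of stress and handling, were positive with a median of 0.33, and their part in these results was not tested.

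**Figure D5:**
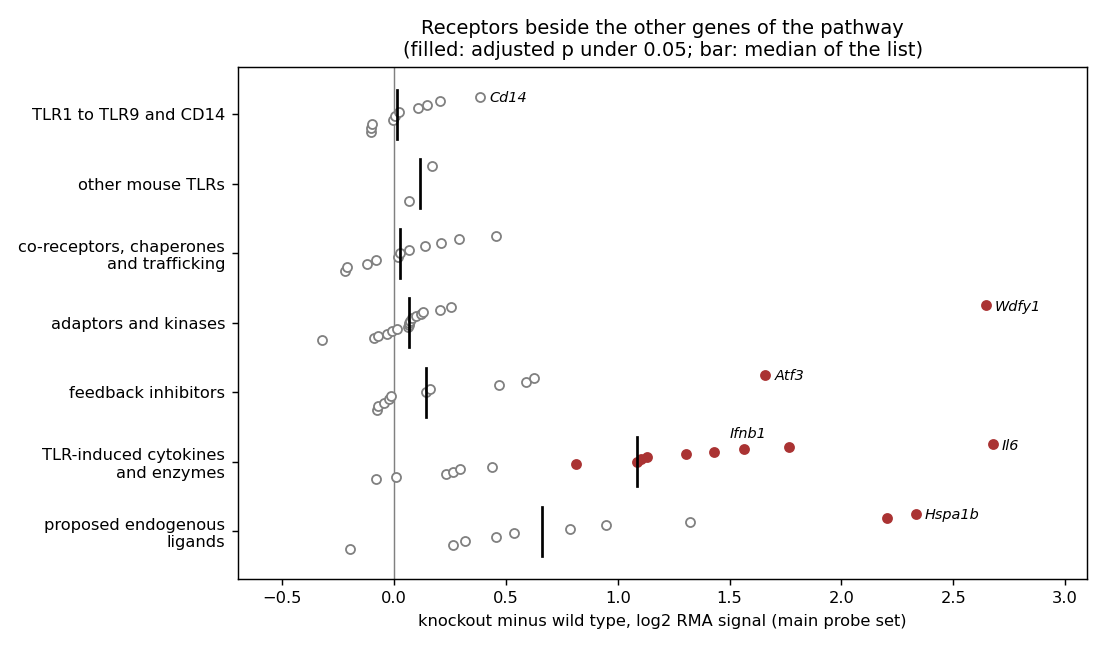
Difference between knockout and wild type (horizontal axis, log2 RMA signal at the main probe set) of each gene in the receptor family and in 6 lists of the same pathway, filled where the limma adjusted p was under 0.05, with the list median as a bar. The 10 members lie around 0 with Cd14 farthest out at 0.38. Filled are 9 of 15 induced cytokines and enzymes, Wdfy1, Atf3, Hspa1b and Hspa1a, where 0.549% of the main probe sets of all genes passed. Several of the cytokines were known from earlier results of these arrays when their list was written.

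For 4 other cell types the mean level of the marker list overlapped between the groups. B cell, dendritic cell, endothelial, and T and NK cell markers had medians of 0.01, -0.03, -0.10 and -0.10, with 0 of their 20 measured members past the threshold by limma. At an unadjusted p under 0.05 there was 1, Cd79a, a B cell receptor chain (-0.34), where 11.5% of the main probe sets of all genes were. The groups did not overlap for Cd79a or for Pecam1, an endothelial adhesion molecule (-0.18), both lower in knockout hearts and named after their values were seen. Neutrophil markers had a median of -0.02, with S100a9 (1.32) and S100a8 (0.95) highest and the other 3 between -0.03 and -0.02, and their mean signal was 3.93 to 4.13 in wild type and 4.30 to 4.62 in knockout hearts. All 7 cardiomyocyte markers were negative with a median of -0.11, and 0 were called by limma. Only 1, Ryr2 at -0.41, had an unadjusted p under 0.05. For 6 of the 7 every knockout value lay below every wild type value, where 15.2% of all probe sets did not overlap in either direction. Their mean log2 signal was 12.89 to 12.99 in wild type and 12.77 to 12.80 in knockout hearts.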

How the data were processed

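RNA of hearts from 3 Tmbim1 knockout and 3 Flox wild type mice was measured, with 1 array per mouse. The authors deposited log2 signals for each probe set, made with RMA per the submitters' processing notes, which also name limma. Their versions and settings are not given in the sources used here. Quantile normalization within RMA makes the distributions of arrays alike and so removes a shift shared by all genes. Array medians were 4.24 to 4.28. Of 38208 rows, 13 were controls and were left out. The platform annotation gave 34325 of the remaining 38195 probe sets 1 symbol, 62 several and 3808 none.

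Groups were compared with limma 3.58.1 in R 4.3.3 (lmFit, eBayes, two-sided) and Benjamini-Hochberg adjustment over all 38195, at 0.05, with no filter on low values. The code was tested on simulated data. Differences are knockout minus wild type in log2 units. The main probe set of a gene has the highest mean over the 6 arrays. The number of arrays limits precision. Members and lists were chosen with earlier results of these data known. Named were the 10 members, Tmbim1, Wdfy1, the genes past the threshold in each pathway list or else its 3 lowest p, and the 3 genes most like each of the 2 most variable members. Cell type and sex-linked markers were named as examples. Protein sequences were not used here.

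Alternatives were the replicate number as a block, variance priors with a trend or made robust, array weights, renormalization by quantiles or medians, a filter at the 40th percentile of signal, 1 probe set for each gene, averaging a gene's probe sets, and leaving out arrays 1 at a time or knockout replicate 1 together with wild type replicate 3.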

Additional observations from a re-analysis of the deposited data

How the results depend on the processing

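In the 228 alternative fits of the 16 member probe sets, 0 passed the threshold, with adjusted p from 0.287 to 0.9998, and 207 kept their direction. The 6 probe sets that kept it in every alternative run were those of Cd14, Tlr8 and Tlr9, 2 of Tlr7 and 1 of Tlr4. With single arrays left out Tlr8 ranged from 0.12 to 0.28, Tlr9 from 0.018 to 0.22, Cd14 from 0.23 to 0.48 and Tlr13 from 0.091 to 0.25. The median of the members then ranged from -0.047 to 0.084. These differences, none of which passed the threshold, changed sign within the ranges given when single arrays were left out. They were Tlr1 at -0.23 to 0.0079, Tlr2 at -0.092 to 0.34, Tlr3 at -0.088 to 0.14 at the main and -0.11 to 0.079 at the other probe set, Tlr4 at -0.27 to 0.030 at the main and -0.18 to 0.020 and -0.14 to 0.017 at its dimmest ones, Tlr5 at -0.070 to 0.032, Tlr6 at -0.048 to 0.045, Tlr7 at -0.11 to 0.047 at 1 dim probe set, and Tlr12 at -0.015 to 0.12. Without knockout replicate 1 and wild type replicate 3 together, Tlr2 was at -0.030 and Tlr3 at -0.047. The cause was not tested. The 161 calls over all probe sets became 38 (without knockout replicate 2) to 86 (without wild type replicate 1) with 1 array left out, 29 with those 2 arrays left out, and 102 with 1 probe set per gene, where fewer are tested. Deviations of same-numbered arrays correlated at 0.060, 0.14 and 0.016, and those of differently numbered arrays at -0.14 to 0.075. As they are centred within groups of 3 arrays, these deviations cannot decide whether the replicate numbers pair the samples. A fit with the replicate block gave 168 calls over all probe sets and 0 among the members. The filter kept 10 of the 16 member probe sets. The dim signals of Tlr1 and of Tlr5 to Tlr9 limit what could be seen there.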
